A study of Mus musculus with 24 samples.

Results

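The genes described are 10 of the 49585 gene identifiers in the deposited counts. They are the Fos family (Fos, Fosb, Fosl1 and Fosl2), the Jun family (Jun, Junb and Jund), the stress-responsive factor Atf3, the zinc-finger factor Egr1 and the growth arrest gene Gadd45b. They were chosen by name as AP-1 subunits and stimulus-responsive genes, with earlier results of these data known. All 10 passed the filter on low counts in every comparison. The study sequenced RNA from whole fat pads of male C57BL/6J mice in 24 libraries, raw reads per gene being the measured quantity. In 1 experiment, wild-type mice received for 20 weeks a diet with 60% of its calories from fat (high-fat, 4 libraries) or with 10% (low-fat, 4 libraries), and the subcutaneous depot (SAT) was taken. In the other, Azin2-/- mice and their wild-type littermates all received the 60% fat diet for 8 weeks, so that the controls carry the obesogenic diet too. Its groups are wild-type SAT (5 libraries), Azin2-/- SAT (3), wild-type epigonadal fat (GAT, 4) and Azin2-/- GAT (4). Azin2 encodes an antizyme inhibitor, a regulator of polyamine metabolism. Which part of the gene the null allele lacks, and how old the mice were, no source used here says.

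AP-1 is a dimer of bZIP proteins, and its Jun proteins pair with one another or with Fos proteins, while Fos proteins need a Jun partner. Most of these genes are immediate early genes: growth factors, cytokines and cell stress switch on their transcription within minutes through MAP kinases and factors already present in the cell, and their transcripts are short-lived. Fos, Fosb, Junb and Egr1 are the classical fast responders, Fosl1 and Fosl2 follow more slowly, and Jund is the most constantly expressed Jun gene. Atf3 binds the related cAMP response element and is known as a brake on inflammatory genes in macrophages. Gadd45b binds upstream kinases of the p38 and JNK pathways and is a target of NF-κB and of stress signals. In obesity, fat tissue is known to gain macrophages.

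The sequences before the transcription starts are shown for the 4 genes that were called higher in more than 1 of the comparisons below. RefSeq windows of GRCm38.p6 were at hand for 8 of the 10 genes, all but Fosl1 and Egr1. Each line gives the 250 bases before the start, 5′ to 3′ on the gene's strand, and capitals mark the letters TGACG on either strand, the core of the cAMP response element, or TATAAA on the gene's strand. The windows lie at chr12:85473640-85473889 (+) for Fos, chr1:191183334-191183583 (-) for Atf3, chr8:84978749-84978998 (-) for Junb and chr10:80929841-80930090 (+) for Gadd45b. The Atf3 window belongs to a start inside the annotated gene, which begins farther upstream on the minus strand. The Fosl2 start also lies inside the annotated gene, and the Jund window belongs to a RefSeq start upstream of the annotated Jund gene, so these windows do not adjoin the annotated starts.
Fos: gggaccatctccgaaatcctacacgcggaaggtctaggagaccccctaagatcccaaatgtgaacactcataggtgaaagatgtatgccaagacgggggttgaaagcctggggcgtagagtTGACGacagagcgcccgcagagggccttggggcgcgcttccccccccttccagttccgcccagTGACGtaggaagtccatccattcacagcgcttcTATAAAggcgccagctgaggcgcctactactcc
Atf3: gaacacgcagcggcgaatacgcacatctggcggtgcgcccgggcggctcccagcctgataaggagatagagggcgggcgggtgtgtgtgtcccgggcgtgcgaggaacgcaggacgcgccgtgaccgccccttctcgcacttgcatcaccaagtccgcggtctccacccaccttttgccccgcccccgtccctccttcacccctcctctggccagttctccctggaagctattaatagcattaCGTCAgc
Junb: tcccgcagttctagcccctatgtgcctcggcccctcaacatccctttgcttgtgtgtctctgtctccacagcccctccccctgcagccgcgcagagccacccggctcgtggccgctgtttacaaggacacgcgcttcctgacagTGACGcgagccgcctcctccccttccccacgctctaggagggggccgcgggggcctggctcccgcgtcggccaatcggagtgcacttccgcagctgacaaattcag
Gadd45b: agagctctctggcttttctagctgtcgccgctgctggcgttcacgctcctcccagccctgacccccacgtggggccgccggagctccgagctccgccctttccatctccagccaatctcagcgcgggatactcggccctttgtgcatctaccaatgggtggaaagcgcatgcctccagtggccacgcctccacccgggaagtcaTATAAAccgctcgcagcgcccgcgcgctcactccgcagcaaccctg
In Fos, TGACG stood 62 and 125 bases before the start, and TATAAA 28 bases before it. Junb had TGACG 102 bases before the start, Atf3 had it 3 bases before the start on the opposite strand, and Fosb had it 56 bases before the start. Gadd45b had TATAAA 41 bases before its start, without the other motif. The letters TGACG were thus in the windows of 4 of the 8 genes, against 17.77% of all 32851 windows in the table, and TATAAA in 2 of the 8, against 7.59%. The full cAMP response element TGACGTCA (1.55% of all windows), the AP-1 element TGACTCA (4.46%) and the serum response element's CArG box (1.47%) were searched on both strands and were in none of the 8, which says only that these letters are not within this stretch. GGGCGG, the GC box, was in 6 of the 8 windows (32.74% of all) and CCAAT in 3 (33.85%). The core TGACG is part of TGACGTCA. It was added to the search after the windows had been read, and these matches are descriptions of letters, not of binding.

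**Figure D1:**
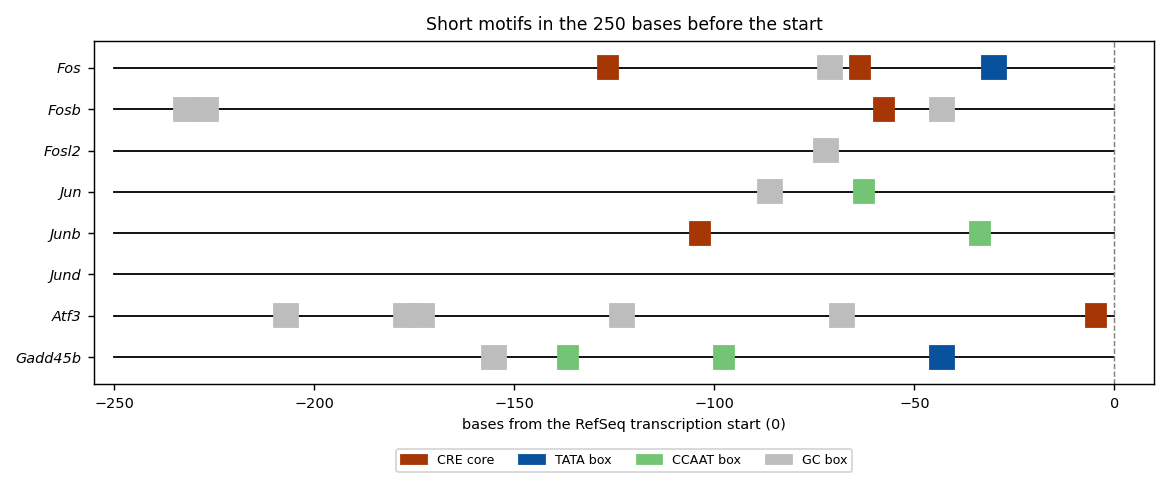
Position of short motifs in the 250 bases before the RefSeq transcription start of 8 genes; the horizontal axis is the distance from the start in bases and each box is a match on either strand (TATA box on the gene's strand only). CRE core is TGACG. Fos, Fosb, Junb and Atf3 hold it, Fos and Gadd45b hold a TATA box, and the Jund window, which lies upstream of the annotated gene and does not adjoin it, holds no match.

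Total counts ranged from 31.96 to 46.62 megareads per library. Levels are given as CPM (reads scaled to a common library size) after TMM scaling over all 24 libraries (normalised CPM below), and marker levels as CPM of the total count. Hoxc10, a subcutaneous depot factor, was above 5 CPM in SAT and below it in GAT in 23 of 24 libraries, but low-fat replicate 1 stood apart: its Hoxc10 was 0.0469 CPM, its mesothelial markers summed to 191 CPM and its epididymal markers to 27590 CPM, so the diet results of the 10 genes and the counts of related genes are given with and without it. Wild-type GAT replicate 3 also held epididymal transcripts (5868 CPM). Skeletal muscle markers reached 71930 CPM in Azin2-/- SAT replicate 2, 64500 CPM in wild-type SAT replicate 3 and 23440 CPM in low-fat replicate 5. They were at 6770 CPM in high-fat replicate 6, against 72.2 to 89.5 CPM in the other 3 high-fat libraries. Azin2 itself was lower in every Azin2-/- library than in every wild-type library of its depot, with a log2 fold change of -0.74 in GAT (SE 0.141, edgeR adjusted p = 0.0408) and of -0.97 in SAT (SE 0.203, adjusted p = 0.244). Azin2-/- GAT replicate 1 had 19.8 CPM of Azin2 against 12.7 to 14.8 CPM in the other 3 libraries of that group. Nothing in the labels says that libraries of a group came from separate animals beyond a number or mark in the title, so p-values measure the spread between these libraries.

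Per kilobase of exon, Jund was the most abundant of the 10 genes in every group, with group means from 87.5 to 124 normalised CPM per kilobase. Jun, with 25.8 to 36.3, followed in all groups except Azin2-/- GAT, where Atf3 (47.7) was above Jun (31.2). Jund and Jun varied little between groups, the highest group mean being 1.41 times the lowest for each. Junb lay between 8.58 and 23.6 CPM per kilobase. Group means of Atf3 ran from 1.76 to 47.7 CPM per kilobase, those of Gadd45b from 3.54 to 21.3 and those of Egr1 from 7.21 to 10. Among the Fos genes, Fosl2 was steady, with group means from 6.93 to 8.35 CPM per kilobase. Fos ranged from 2.14 to 25.6 CPM per kilobase and so was below Fosl2 in low-fat SAT and above it in Azin2-/- GAT. Fosb and Fosl1 were scarce, at 0.239 to 1.25 and 0.128 to 1.15 CPM per kilobase. Fosl1 rested on 6 to 109 reads in a library, and its locus overlaps Ccdc85b on the opposite strand, a gene with a median of 1542.5 reads against 21.5 for Fosl1. Junb likewise overlaps the end of Prdx2 on the opposite strand, and Jun and Jund overlap the antisense genes Junos and Gm11175. No source used here says whether counting used the strand, so reads could be shared between these neighbours.

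Atf3 had the widest range, its highest group mean being 27.2 times its lowest. The order of its group means was Azin2-/- GAT (103 normalised CPM, SD 50), high-fat 20-week SAT (34.8, SD 4.16), wild-type GAT (28.3, SD 15.4), Azin2-/- SAT (17.8, SD 11.5), wild-type SAT (11.4, SD 3.62) and low-fat SAT (3.79, SD 0.399). Azin2-/- GAT lay above all high-fat SAT libraries and low-fat SAT below all other libraries, while the neighbours in between overlapped. Fos followed the same order of groups, each overlapping its neighbour except low-fat SAT, with a 12-fold span, from 60.2 (SD 29.3) to 5.02 (SD 2.50) normalised CPM. Fosl1 spanned 9.04-fold, Gadd45b 6.01-fold, Fosb 5.20-fold and Junb 2.76-fold between group means. Egr1 spanned only 1.39-fold and Fosl2 1.21-fold. Low-fat SAT, with replicate 1 included, had the lowest mean for 9 of the 10 genes, the exception being Fosl2. For Jun this rested on replicate 1, at 51.9 normalised CPM. Low-fat replicates 3, 5 and 6 had 82.5, 98.1 and 96.8, beside a mean of 85.3 in high-fat SAT.

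**Figure D2:**
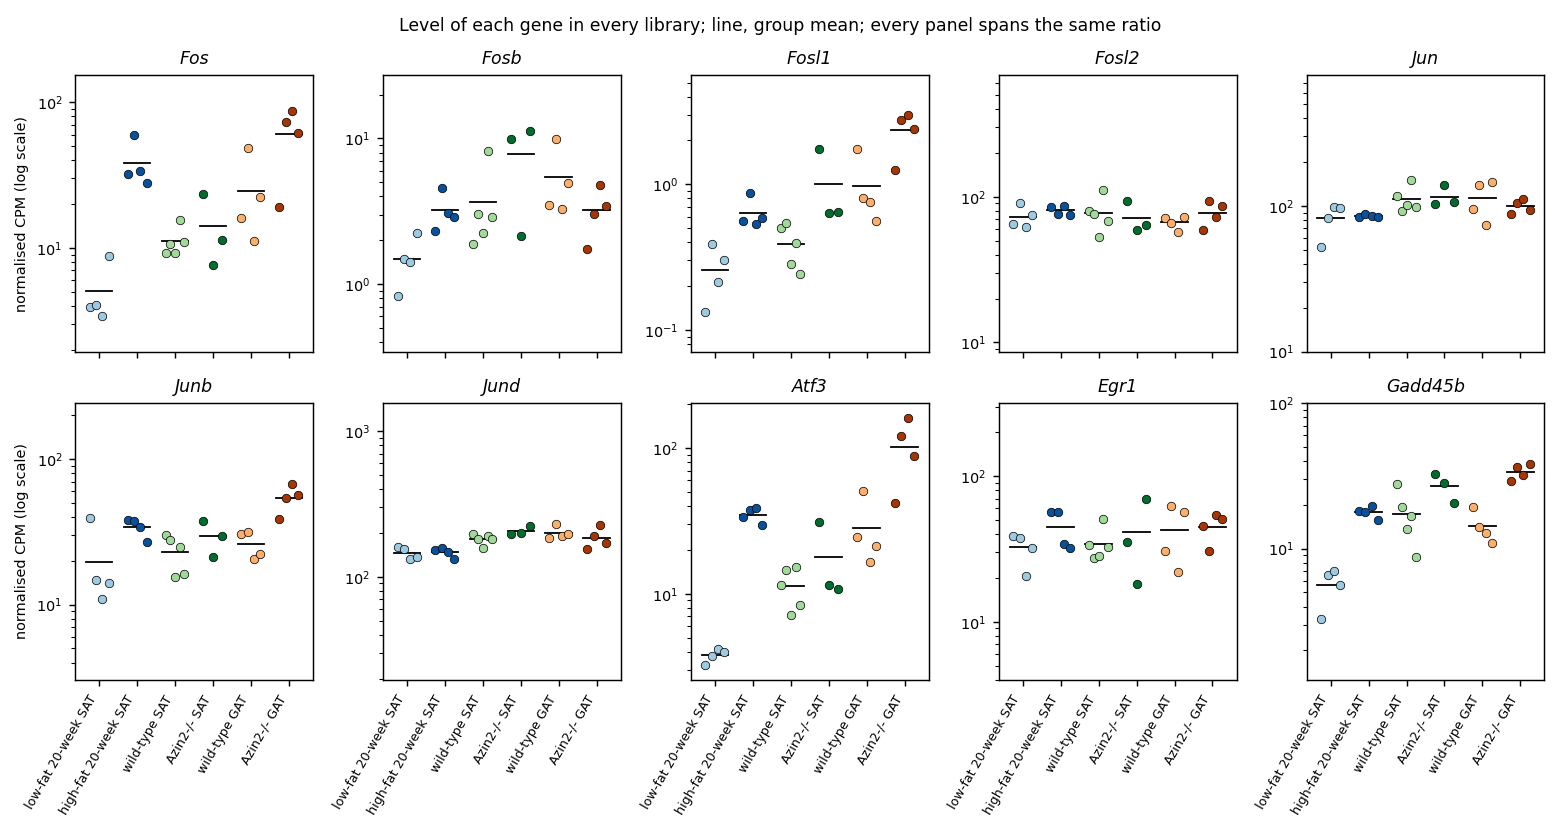
Normalised CPM (log axis) of the 10 genes in each of the 24 libraries, by group; points are libraries and lines group means, and every panel spans the same ratio. Atf3 and Fos run from low values in low-fat SAT to high values in Azin2-/- GAT, while Jund, Jun and Fosl2 stay within a narrow band.

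The first comparison asks how long-term high-fat feeding changed the genes in SAT. Atf3, Fos, Gadd45b and Fosl1 were higher on the high-fat diet, and none of the 10 was lower. Atf3 was at 33.6, 37.6, 38.6 and 29.5 normalised CPM in the high-fat libraries (replicates 3 to 6) and at 3.27, 3.72, 4.21 and 3.96 in the low-fat ones (replicates 1, 3, 5 and 6). Every high-fat library was far above every low-fat one, and the libraries within each group lay close together. The fold was 9.03 (log2 fold change 3.17, SE 0.122, edgeR quasi-likelihood adjusted p = 6.4e-05).

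Fos, the founding AP-1 subunit, was at 32.2, 59.4, 33.8 and 27.9 normalised CPM on the high-fat diet and at 3.92, 4.02, 3.40 and 8.75 on the low-fat diet. The groups were apart, with 1 high library in each. Its log2 fold change was 2.91 (SE 0.386, adjusted p = 0.00281), or 7.51-fold.

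Gadd45b was at 18.0, 17.9, 19.5 and 15.6 normalised CPM against 3.29, 6.59, 6.99 and 5.59. The high-fat libraries were nearly alike, and low-fat replicate 1 was the lowest of its group. The log2 fold change was 1.64 (SE 0.219, adjusted p = 0.00281). Fosl1, a slower Fos gene, was at 0.556, 0.870, 0.534 and 0.590 against 0.134, 0.391, 0.214 and 0.301 normalised CPM. Its groups were apart, but the values are small. The log2 fold change was 1.27 (SE 0.346, adjusted p = 0.036), and the call was lost in 6 of the 8 fits that left out 1 library (any high-fat library, or low-fat replicate 5 or 6), with an adjusted p up to 0.111.

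These 4 of 10 genes stand beside 10.8% of the 17066 genes tested that were called higher, and 5 of the 10 had high-fat libraries all above the low-fat ones, beside 16.9% of all genes. The median log2 fold change of the 10 was 0.91, against -0.09 over all genes tested. The fifth gene without overlap was Fosb, at 2.30 to 4.57 against 0.823 to 2.26 normalised CPM, with a log2 change of 1.08 (SE 0.338, adjusted p = 0.0572). Fosb was called without low-fat replicate 6 (1.35, adjusted p = 0.0373).

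Junb depended on the library that stood apart. It was at 38.0, 37.4, 34.0 and 26.9 normalised CPM on the high-fat diet and at 39.3, 14.7, 10.9 and 14.0 on the low-fat diet. Low-fat replicate 1 was the highest of all 8 libraries, and the other 3 low-fat libraries lay below every high-fat one. With it the log2 fold change was 0.74 (SE 0.419, adjusted p = 0.234), and without it 1.36 (SE 0.148, adjusted p = 0.000239). Without that library 6 of the 10 genes were called higher and 0 lower, beside 23.5% of 17268 genes called higher. Fosb was then among them (log2 fold change 0.89, SE 0.276, adjusted p = 0.0273), Atf3 had 3.13 (adjusted p = 6.46e-06), Fos 2.82 (adjusted p = 0.00466), Gadd45b 1.47 (adjusted p = 3.84e-05) and Fosl1 1.06 (SE 0.317, adjusted p = 0.0232).

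The other 4 genes did not pass the test with or without low-fat replicate 1. Jund, the most abundant, changed by -0.01 in log2 (SE 0.108, adjusted p = 0.949) and Jun by 0.03 (SE 0.175, adjusted p = 0.906). Fosl2 had 0.12 (SE 0.122, adjusted p = 0.487). Egr1, a fast responder like Fos, was at 56.6, 56.3, 34.2 and 32.2 against 38.9, 37.5, 20.6 and 32.3 normalised CPM. Its groups overlapped, and its log2 fold change was 0.44 (SE 0.275, adjusted p = 0.272). Without low-fat replicate 1 the values were 0.06 for Jund, -0.12 for Jun, 0.09 for Fosl2 and 0.57 for Egr1, with adjusted p from 0.174 to 0.581.

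Markers of other cells moved with the diet too. The 10 macrophage markers, all detected in every library, summed to 1630 to 2060 CPM in the high-fat and 411 to 625 CPM in the low-fat libraries, and 10 of 10 were called higher. The 8 neutrophil markers (4 to 7 detected in a library) summed to 10.4 to 18.2 against 3.74 to 5.20 CPM, but the defining gene Ly6g was at 0 in every high-fat library and Ngp in every low-fat one. Of the mast cell markers, 5 of 5 tested were called higher, with sums of 70.1 to 85.5 against 36.6 to 49.2 CPM, and the groups did not overlap. B cell markers were called higher in 2 of 6 and adipose progenitor markers in 2 of 7, while 1 of 8 adipocyte markers was called lower. Without low-fat replicate 1 these became 6 of 6 B cell and 5 of 7 progenitor markers higher, and 5 of 8 adipocyte markers lower with 2 higher. The part of any of these cells in the higher levels of Atf3, Fos, Gadd45b and Fosl1 was not tested. In whole tissue, more cells of a type and more RNA per cell cannot be told apart.

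Genes related to these 10 stand beside the same 10.8% of all genes called higher, or 23.5% without low-fat replicate 1. Of 22 other immediate early genes tested, 5 were higher and 1 lower on the high-fat diet, with a median log2 fold change of 0.35. Npas4, a bHLH factor (log2 fold change 2.54, SE 0.353), Ccn1, a secreted matricellular protein (1.49, SE 0.34), Egr3, a paralog of Egr1 (1.42, SE 0.243), and Klf10 (0.78, SE 0.0869) rose, and the nuclear receptor gene Nr4a2 fell (-0.81, SE 0.208). Of 22 other bZIP factors, 3 were higher and 1 lower. Batf, a partner of Jun proteins in lymphocytes, had a log2 change of 1.48 (SE 0.293), Maff of 0.93 (SE 0.21) and Mafg of -0.44 (SE 0.0659). All of these had adjusted p from 0.00156 to 0.03 (edgeR). Without low-fat replicate 1, 10 of the 22 other immediate early genes were higher and 1 lower (median 0.25), and 5 of the 22 other bZIP factors were higher and 2 lower (median 0.06).

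Upstream, 3 of 18 genes of the MAP kinase and SRF input were higher and 0 lower: the kinase gene Rps6ka1 (log2 fold change 0.60), Mrtfa (0.42), a coactivator of SRF, and Elk4 (0.30), a ternary complex factor. The median over the 18 was -0.01. Without low-fat replicate 1, 7 of the 18 were higher and 1, the ternary complex factor gene Elk1 (-0.30, SE 0.102), was lower. Of 12 feedback genes of the MAP kinases 0 were higher and 1, the phosphatase gene Dusp4, was lower (-0.78, SE 0.229, adjusted p = 0.047). Dusp4 was not called without low-fat replicate 1, when Dusp5 (1.79, SE 0.232) and Spred1 (0.70, SE 0.104) were higher and Dusp16 was lower (-0.19, SE 0.0667). Downstream, 6 of 15 textbook AP-1 targets were higher and 0 lower, with a median of 1.21, among them Mmp12 (6.22, SE 0.795), Cd44 (2.19, SE 0.312), Hmox1 (2.13, SE 0.288) and Plaur (1.77, SE 0.273). Without low-fat replicate 1, 10 of the 15 were higher, with a median of 0.93, and 2 were lower, Vegfa (-1.18, SE 0.129), which codes for an endothelial growth factor, and the protease gene Mmp9 (-1, SE 0.225). Mmp12 and Spp1 of that list are also on the list of lipid-associated macrophage markers. Of 11 genes of the integrated stress response, of which Atf3 is a known effector, Gdf15 (2.01, SE 0.263), Vldlr (1.00, SE 0.179) and Ddit4 (0.85, SE 0.239) were higher and Asns was lower (-1.12, SE 0.228). Without low-fat replicate 1, 5 of these 11 were higher and 2 lower, Asns and Trib3 (-0.50, SE 0.168). The paralogs Gadd45a and Gadd45g were not called in either fit.

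**Figure D3:**
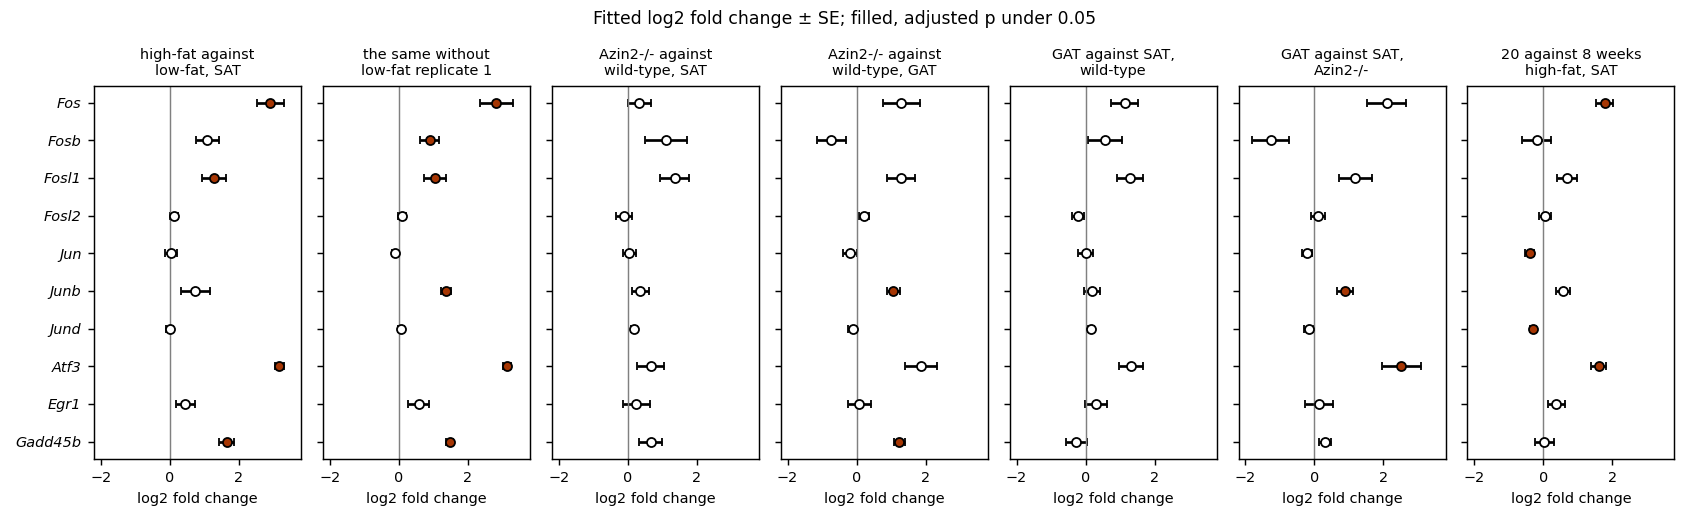
Log2 fold change (horizontal axis) with its SE for the 10 genes in 7 fits; filled points have an edgeR adjusted p under 0.05. Atf3 and Fos lie farthest to the right in the diet comparison (3.17 and 2.91), and the Jun, Jund and Fosl2 points lie near 0 in all panels, with Jun and Jund below 0 at 20 against 8 weeks.

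The next comparison asks what loss of Azin2 did in GAT of mice on the high-fat diet. Gadd45b and Junb were higher in Azin2-/- GAT, and none of the 10 was lower. Gadd45b was at 29.1, 36.1, 31.9 and 38.0 normalised CPM in the Azin2-/- libraries (replicates 1 to 4) and at 19.4, 14.1, 12.9 and 10.9 in the wild-type ones. The groups did not overlap. The log2 fold change was 1.24 (SE 0.169, adjusted p = 0.0408).

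Junb was at 38.9, 54.0, 67.5 and 56.8 normalised CPM against 30.6, 31.3, 20.7 and 22.2. Again every Azin2-/- library was above every wild-type one, replicate 1 being the nearest to them. The log2 fold change was 1.06 (SE 0.191, adjusted p = 0.0408). Both calls were lost in 5 of the 8 fits without 1 library (without Azin2-/- replicate 2, 3 or 4 or wild-type replicate 2 or 4), with adjusted p up to 0.142 while the log2 fold changes stayed between 0.93 and 1.19 for Junb and between 1.13 and 1.42 for Gadd45b. These 2 of 10 genes stand beside 5.45% of 16778 genes called higher, and 2 of 10 without overlap beside 8.77%. The median log2 fold change of the 10 was 0.64, against -0.03 over all genes tested.

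Atf3 had the largest log2 fold change of the 10 in this comparison, 1.86 (SE 0.464), but its adjusted p of 0.0502 missed the threshold. It was at 41.8, 120, 160 and 88.6 normalised CPM in Azin2-/- GAT and at 24.5, 50.8, 16.6 and 21.3 in wild-type GAT. Azin2-/- replicate 1 lay below wild-type replicate 2, and the other 3 Azin2-/- libraries lay above all wild-type ones. Without Azin2-/- replicate 1 the log2 fold change was 2.12 (adjusted p = 0.0155). Without any 1 of the other 7 libraries Atf3 was not called, and its adjusted p over the 8 such fits ran from 0.0155 to 0.153.

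Fos was at 19.2, 73.3, 87.1 and 61.1 against 16.1, 48.8, 11.1 and 22.2 normalised CPM. The ranges overlapped, again through Azin2-/- replicate 1 and wild-type replicate 2. The log2 fold change was 1.30 (SE 0.548, adjusted p = 0.164). Fosl1 had 1.28 (SE 0.40, adjusted p = 0.0855), and was called without wild-type replicate 1 (1.71, adjusted p = 0.0358) or Azin2-/- replicate 1 (1.48, adjusted p = 0.0365). Fosb, with the opposite sign, had -0.74 (SE 0.422, adjusted p = 0.278). Fosl2 (0.22), Egr1 (0.08), Jund (-0.11) and Jun (-0.18) had adjusted p between 0.32 and 0.887.

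In these libraries, too, macrophage markers moved with the genotype. The summed level was 2085, 3728, 4345 and 3227 CPM in Azin2-/- replicates 1 to 4 and 1674, 1739, 1161 and 1317 CPM in the wild-type ones, and 9 of the 10 markers were called higher. Azin2-/- replicate 1, which had the lowest macrophage level of its group and the highest Azin2, also had the lowest value of its group for 9 of the 10 genes. Replicate 3, with the highest macrophage level, had the highest value for 8 of them. The neutrophil sum (4 to 8 of 8 markers detected) was 15.8 to 30.3 CPM against 7.30 to 8.23, with Ly6g at 0 to 1 read in every library. Other cell markers moved as well. Of the B cell markers 3 of 6 were called lower (median log2 fold change -1.57), and of the adipocyte markers 1 of 8 (-0.43). Of the adipose progenitor markers 1 of 7 was called higher. Mesothelial markers, with 0 of 6 called, summed to 30.4 to 136 CPM against 62.8 to 499. The part of any of these cells in the levels of Junb and Gadd45b was not tested.

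Few relatives passed the test in this comparison, in which 5.45% of 16778 genes were called higher and 221 genes lower. Npas4 was 1 of 22 other immediate early genes that was higher (log2 fold change 2.16, SE 0.467), Maff 1 of 22 other bZIP factors (0.83, SE 0.195), Rps6ka1 1 of 18 input genes (0.82, SE 0.163) and Spred1 1 of 12 feedback genes (0.73, SE 0.155). None of these lists had a gene called lower. Of 15 textbook targets 4 were higher, with a list median of 1.13: Spp1 (2.26, SE 0.488), which codes for osteopontin, Mmp13 (1.61, SE 0.28), Timp1 (1.58, SE 0.326) and Hmox1 (1.13, SE 0.21). Of 11 stress response genes Asns alone was called, and it was lower (-0.65, SE 0.143). All had adjusted p from 0.0408 to 0.0441 (edgeR), close to the threshold.

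In SAT, loss of Azin2 moved none of the 10 genes past the threshold of edgeR, where 0.0059% of 16948 genes, a single gene, were called. At an unadjusted p under 0.05 the count was 1 of 10, beside 1745 of 16948 genes, and DESeq2 and limma-voom each called 0 of the 10. Gadd45b was at 32.8, 28 and 20.5 normalised CPM in Azin2-/- SAT and at 27.8, 19.4, 13.7, 16.7 and 8.81 in wild-type SAT. The ranges overlapped, and the log2 fold change was 0.66 (SE 0.329, adjusted p = 0.539). Fosl1 did not overlap (0.638 to 1.76 against 0.243 to 0.541 normalised CPM), 1 of 10 beside 523 of 16948 genes higher without overlap. Its log2 change was 1.36 (SE 0.422, adjusted p = 0.354). Without Azin2-/- replicate 1 this was 0.69 (adjusted p = 0.655). Atf3 was at 31.1, 11.5 and 10.8 against 11.5, 14.5, 7.13, 15.4 and 8.38 normalised CPM. Its 1 high library, Azin2-/- replicate 1, also had the highest macrophage sum of its group, 1280 CPM against 613 and 648. Without that library the log2 fold change of Atf3 was -0.02, and with all libraries it was 0.66 (adjusted p = 0.598). The other 7 genes had log2 fold changes from -0.11 for Fosl2 to 1.10 for Fosb, none of them called. The 7 lists of relatives held 0 called genes.

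Whether the effect of Azin2 loss differed between the depots was tested by an interaction term over the 16 libraries of that experiment. None of the 10 genes passed edgeR's test, and of all 18033 genes tested 0% passed it. At an unadjusted p under 0.05 there was 1 of the 10, beside 2016 of 18033 genes. It was Fosb, whose change was lower in GAT than in SAT (difference of log2 fold changes -1.82, SE 0.79, adjusted p = 0.425). DESeq2 called 0 of the 10, beside 158 of 18033 genes. Limma-voom with quality weights called 3 of the 10, beside 2718 of 18033 genes. These were Fosb (-2.69, adjusted p = 0.00807), Junb (0.88, adjusted p = 0.0341) and Gadd45b (1.27, adjusted p = 0.0316). By edgeR, for Atf3 the difference was 1.22 (SE 0.67, adjusted p = 0.51), for Junb 0.70 (SE 0.348, adjusted p = 0.47) and for Gadd45b 0.59 (SE 0.398, adjusted p = 0.583). Whether the calls of Junb and Gadd45b in GAT and not in SAT are a difference between depots thus depended on the tool. By edgeR and DESeq2 none was shown, and limma-voom called both genes among its many calls over all genes.

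The depots were also compared within each genotype, in groups that the genotype comparisons use as well. The titles carry the same animal mark in both depots for 3 wild-type and 2 Azin2-/- pairs of libraries, so depots may share mice, which the fits below do not use. In wild-type mice 0 of the 10 genes were called by edgeR between GAT and SAT, beside 4.33% of 17030 genes. At an unadjusted p under 0.05 the count was 3, beside 3735 of 17030 genes. DESeq2 called 3 of the 10 and limma-voom 2, all of them higher in GAT, beside 1784 and 2454 of all genes. Atf3 was higher in each GAT library (16.6 to 50.8 normalised CPM) than in each SAT library (7.13 to 15.4), with a log2 change of 1.31 (SE 0.347, adjusted p = 0.0686). Without wild-type GAT replicate 3, the library with epididymal transcripts, it was 1.49 (adjusted p = 0.047). Fosl1 had 1.28 (SE 0.378, adjusted p = 0.0932) and Fos 1.14 (SE 0.388, adjusted p = 0.139). Atf3 and Fosl1 were the 2 of the 10 with every GAT library above every SAT one, beside 877 of 17030 genes. The macrophage sums of these groups were 1160 to 1740 CPM in GAT and 608 to 1200 CPM in SAT.

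In Azin2-/- mice Atf3 and Junb were called higher in GAT than in SAT, 2 of 10 beside 9.13% of 16800 genes. Atf3 had a log2 change of 2.52 (SE 0.57, adjusted p = 0.0305) and Junb one of 0.88 (SE 0.232, adjusted p = 0.0446). For both genes all 4 GAT libraries lay above all 3 SAT libraries, as for 2588 of 16800 genes, though Atf3 in GAT replicate 1 (41.8 normalised CPM) was near SAT replicate 1 (31.1). Both calls were lost in 5 of the 7 fits without 1 library (GAT replicate 2, 3 or 4, or SAT replicate 2 or 3), with adjusted p up to 0.0915 for Atf3 and 0.117 for Junb. Without the muscle-rich SAT replicate 2, Atf3 had 2.30 (adjusted p = 0.0613), Junb 0.71 (adjusted p = 0.0778), and Fosb was called lower in GAT (-1.70, adjusted p = 0.0276). Fos missed the threshold with 2.09 (SE 0.577, adjusted p = 0.0503), and passed it without GAT replicate 1 (2.39, adjusted p = 0.015) or SAT replicate 1 (2.67, adjusted p = 0.0355). With a block on the animal marks Fos was called too (3.11, adjusted p = 0.0103). Gadd45b, high in both Azin2-/- depots, had 0.31 (SE 0.175, adjusted p = 0.247). Macrophage sums were 2080 to 4340 CPM in GAT and 613 to 1280 CPM in SAT.

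Wild-type SAT after 20 and after 8 weeks of the 60% fat diet came from separate experiments, so time on diet and experiment cannot be told apart, and the high-fat libraries are those of the diet comparison. Fos and Atf3 were higher at 20 weeks, 2 of 10 beside 19.6% of 16953 genes, and Jund and Jun were lower, 2 of 10 beside 19.5%. Fos was at 27.9 to 59.4 against 9.25 to 15.6 normalised CPM (log2 fold change 1.78, SE 0.239, adjusted p = 0.000551). Atf3 was at 29.5 to 38.6 against 7.13 to 15.4 (1.61, SE 0.216, adjusted p = 0.000502). Neither gene's groups overlapped, beside 2977 of 16953 genes higher at 20 weeks without overlap.

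Jund was at 153, 158, 147 and 132 normalised CPM at 20 weeks and at 198, 181, 157, 190 and 181 at 8 weeks, a small and even shift with a log2 change of -0.30 (SE 0.076, adjusted p = 0.0112). Jun was at 84.2, 87.4, 85.9 and 83.7 against 118, 92.8, 102, 151 and 98.5 (log2 fold change -0.40, SE 0.13, adjusted p = 0.0325), and its call was lost in 5 of the 9 fits without 1 library (any high-fat library, or wild-type replicate 1). The 4 high-fat libraries had nearly the same Jun level. Gadd45b, which differed by diet at 20 weeks, had a log2 fold change of 0.03 between the times (SE 0.275, adjusted p = 0.932), with wild-type SAT at 8.81 to 27.8 normalised CPM. The macrophage sums were 1630 to 2060 CPM at 20 weeks and 608 to 1200 CPM at 8 weeks, and 10 of 10 markers were called higher at 20 weeks.

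Relatives at 20 against 8 weeks stand beside 19.6% of all genes called higher and 19.5% called lower. Of 22 other immediate early genes 4 were higher and 3 lower. Egr2 (log2 fold change 1.5, SE 0.195) and Npas4 (1.89, SE 0.362) were higher, and Nr4a2 (-0.65, SE 0.117) and Ier3 (-0.62, SE 0.197) were lower. Of 22 other bZIP factors 8 were higher and 2 lower, Bach1 (0.59, SE 0.0594) and Bach2 (0.93, SE 0.145) rising, and Atf5 (-0.66, SE 0.0847) and Atf4 (-0.24, SE 0.0706) falling. Of 12 feedback genes 4 were higher and 0 lower, among them Spred1 (0.70, SE 0.0783) and Dusp5 (0.97, SE 0.256). Of 11 stress response genes 1 was higher, Gdf15 (1.32, SE 0.267), and 4 were lower, Asns (-0.82, SE 0.129), Trib3, Ppp1r15a and Psat1. All had edgeR adjusted p of 0.0305 or less.

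Across the 24 libraries, the genes whose log2 levels were most like those of Atf3, among 12061 genes ranked by Pearson's r, were Matk (0.99), Cyba, Cd84, Slc15a3 and Daglb (0.98 each). Cyba codes for a subunit of the phagocyte oxidase, and Cd84 is a surface receptor of leukocytes. After the group means were subtracted, they were Slc15a3 (0.93), Il7r (0.91), Amz1, C1qc and C1qb (0.90 each). For Fos they were Apbb1ip, Fcgr3, Frmd4b and C1qb (0.95 each) and Amz1 (0.94), and, after subtraction, Hexa (0.91) and Ctsa, Ctsd, P2rx4 and Galc (0.87 each). Hexa, Ctsa, Ctsd and Galc code for lysosomal enzymes. Atf3 was among the 50 genes most like Fos on both scales, and Fosb after subtraction, and none of the other 8 of these genes that were ranked was among the 50 most like Atf3. Fosl1 was too low to be ranked, and its r with Atf3 was 0.87 over the levels and 0.64 after subtraction. These r describe libraries that share groups, tissue makeup and scaling, and carry no test.

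Between Fos and Atf3, r was 0.95 over the levels and 0.82 after subtraction of group means (24 libraries). Fos and Fosb had 0.52 and 0.78. Against the summed macrophage level, on log scales, r was 0.97 for Atf3 and 0.93 for Fos, and 0.88 and 0.70 after subtraction. It was 0.84 for Fosl1, 0.77 for Junb, 0.71 for Gadd45b, 0.35 for Egr1, 0.33 for Fosb, 0.30 for Fosl2, 0.22 for Jund and 0.13 for Jun. After subtraction it was 0.76 for Fosl1, 0.57 for Fosl2, 0.53 for Gadd45b, 0.51 for Fosb, 0.39 for Junb, 0.37 for Jund, 0.27 for Jun and 0.09 for Egr1. Gadd45b departed from this order in SAT of both genotypes of the Azin2 experiment. Azin2-/- replicates 2 and 3 had 28 and 20.5 normalised CPM at macrophage sums of 613 and 648 CPM. Wild-type replicates 1 to 5 had 27.8, 19.4, 13.7, 16.7 and 8.81 at 1005, 1195, 608, 904 and 797 CPM. Low-fat replicates 5 and 6, of the other experiment, had 6.99 and 5.59 at 606 and 625 CPM. High-fat libraries had 15.6 to 19.5 at 1630 to 2060 CPM. Azin2-/- replicate 2, wild-type replicate 3 and low-fat replicate 5 were rich in muscle transcripts (71930, 64500 and 23440 CPM). Low-fat replicate 1 departed for Junb, with 39.3 normalised CPM at 411 CPM.

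**Figure D4:**
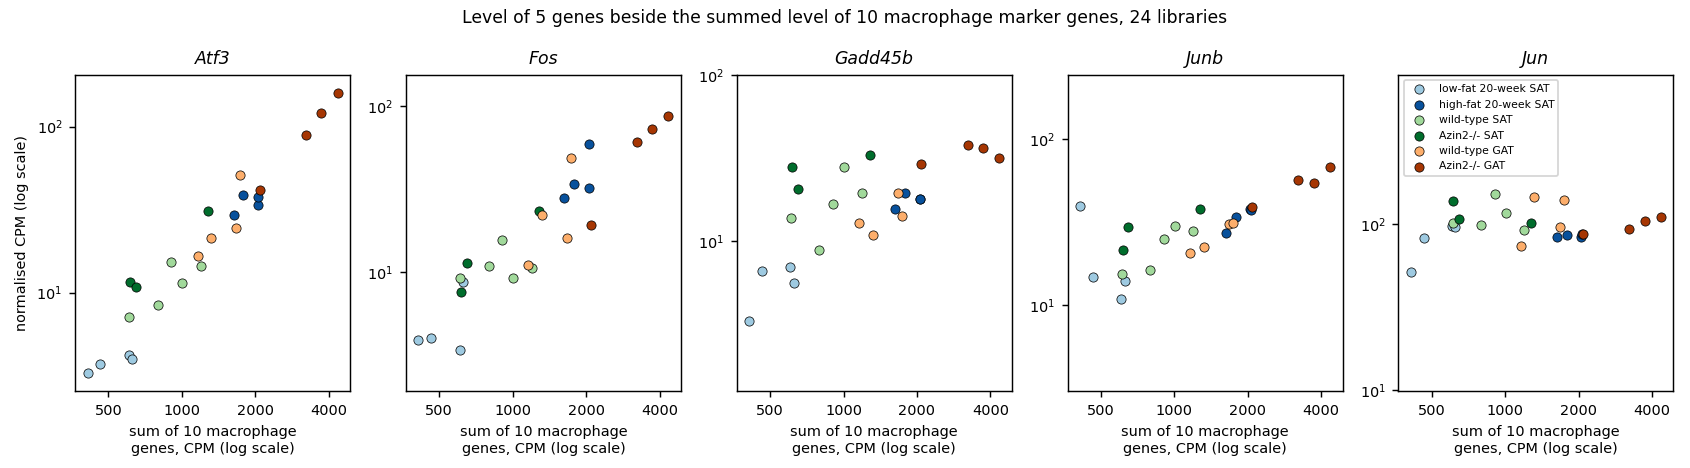
Normalised CPM of Atf3, Fos, Gadd45b, Junb and Jun (vertical, log axis) beside the summed CPM of 10 macrophage markers (horizontal, log axis) in 24 libraries, coloured by group. Atf3 and Fos climb with the marker level over all groups, Gadd45b and Junb do so with exceptions, and Jun stays level.

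Within groups, the same libraries were often extreme for several of the 10 genes, which share their depth and scaling. High-fat replicate 6, the library of its group with muscle transcripts (6770 CPM), was the lowest of its group for 8 genes, wild-type GAT replicate 3 for 7, and Azin2-/- SAT replicate 2, the muscle-rich library, for 6. Wild-type SAT replicate 4, wild-type GAT replicate 2 and Azin2-/- SAT replicate 1 were the highest for 6 genes each. The spread itself differed by gene: in Azin2-/- SAT the coefficient of variation was 64.5% for Egr1, 63.4% for Fosb and 58.4% for Fos, but 7.57% for Jund and 16.7% for Jun.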

How the data were processed

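RNA of whole fat tissue was measured in 24 libraries made with a stranded total RNA kit, per the labels' protocols. The authors deposited raw read counts per Ensembl gene, unnormalised, 1 table per library. The submitters' processing notes name cutadapt, STAR, HTSeq 0.6.1p1 and the build GRCm38 (mm10). Their settings and the annotation are not stated in any source used here. Symbols, coordinates and exon lengths came from GENCODE M21, which held 49326 of the 49585 identifiers. No 2 libraries were identical.

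The edgeR package (4.0.16, R 4.3.3) fitted the counts (filterByExpr with minimum count 10 and minimum total 15, TMM, robust quasi-likelihood test) of the libraries in each comparison. Calls needed an adjusted p (Benjamini-Hochberg, over every gene in the fit) under 0.05. Scripts were tested on simulated data. Likeness was Pearson's r of log2 CPM (prior count 2) among genes whose mean log2 CPM reached 1. DESeq2 1.42.0, limma 3.58.1 and other settings served as alternatives. The 10 genes and the lists were chosen with earlier results of these data known. Each list's called genes of smallest p, up to 4 per direction, were eligible to be named, and 1 of them is not reported here. The fit without low-fat replicates 1 and 5 was added after seeing the data. Replicate numbers did not pair the libraries.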

Additional observations from a re-analysis of the deposited data

Results flagged for a closer look

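In 6 of the 50 combinations of gene and group with 4 or 5 libraries, 1 library lay far above the rest of its group relative to the group's range. The limit used gives about 1 in 20 for independent, normally distributed values. These genes share libraries and their CPM need not be normally distributed, so that rate is no measure of chance here. Wild-type SAT replicate 4 did so for Fos, with 15.6 normalised CPM against 10.9 in the nearest library, for Fosb, with 8.19 against 3.02, and for Egr1, with 50.4 against 33.6. These 3 classical fast responders were high in the same library, but Junb, named above as a fast responder too, was not. Junb had 24.87 normalised CPM there, below replicates 1 (29.85) and 2 (27.88). The macrophage sum of wild-type SAT replicate 4, 904 CPM, was the median of its group. In low-fat SAT, replicate 6 had 8.75 normalised CPM of Fos against 4.02 in the nearest library, and replicate 1, the library with epididymal transcripts, had 39.3 of Junb against 14.7. In high-fat SAT, replicate 4 had 0.87 of Fosl1 against 0.59, on 32 and 21 reads. The causes were not tested.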

How the results depend on the processing

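For the diet comparison in SAT, Azin2 loss in SAT, and 20 against 8 weeks in SAT, the number of the 10 genes called stayed within 1.5 times the reported number under the alternatives run: 3 to 6 against 4, 0 against 0, and 3 to 5 against 4. For Azin2 loss in GAT (2 called) DESeq2 called 4, limma-voom with quality weights 6, a fit with no low-count filter 0, and fits without 1 library between 0 and 4. Over the 16778 genes tested there, DESeq2 called 3079 and limma-voom 6454. For GAT against SAT in wild-type mice (0 called) the numbers were 3 by DESeq2, 2 by limma-voom and 0 to 1 without 1 library. For GAT against SAT in Azin2-/- mice (2 called) they were 6 by limma-voom, 0 with no low-count filter, 1 without the muscle-rich library and 0 to 4 without 1 library. The difference between depots (0 called) gave 3 by limma-voom. The cause of these shifts was not tested.

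With a replicate block, where titles share a number or mark, 4 genes were called for diet, 3 for Azin2 loss in GAT, 3 for GAT against SAT in Azin2-/- mice and 0 in the others. Same-numbered libraries deviated together in some pairs only (r from -0.2 to 0.75), so the numbers were not taken as pairs. The r of 0.75 was between Azin2-/- SAT replicate 2 and wild-type SAT replicate 3, both rich in muscle transcripts (71930 and 64500 CPM). In the genotype comparisons a shared mark joins libraries of different genotypes, and so of different mice. The block changed 4 calls of single genes: Fosl1 by diet lost its call (adjusted p = 0.0968), while Junb by diet (0.00306), Fosl1 by genotype in GAT (0.0226) and Fos between depots in Azin2-/- (0.0103) gained one. It moved the calls over all genes from 3622 to 5867 for diet, from 1136 to 1716 for Azin2 loss in GAT, from 2549 to 1099 for depots in Azin2-/- and from 738 to 0 for depots in wild-type mice.

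Over all genes, the share of calls that were higher and their number also moved with other settings. For diet, 3622 genes were called, 51.1% of them higher, against 8109 (50%) without low-fat replicate 1 and 2335 (60.6%) with no low-count filter. For Azin2 loss in GAT, 1136 were called, 80.5% of them higher, against 3079 (60.7%) by DESeq2, 0 with no low-count filter and 0 without Azin2-/- GAT replicate 3 or 4 or wild-type GAT replicate 2 or 4. For Azin2 loss in SAT, DESeq2 called 338 and limma-voom 295 genes against 1. For GAT against SAT the calls were 1784 by DESeq2 and 2454 by limma-voom against 738 in wild-type mice, and 4387 and 6631 against 2549 in Azin2-/- mice. For the difference between depots they were 158 and 2718 against 0, and at 20 against 8 weeks 4229 with all libraries in 1 fit against 6614. Of 180 alternative values of called genes among the 10, 136 stayed called and 44 did not, and of 950 values of uncalled ones 44 became called. No called value changed its sign. Fosl1, with 6 to 109 reads in a library, had the fewest reads of the 10 genes.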
